A study of Mus musculus with 10 samples.

Results

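Glutamate, GABA and acetylcholine act on cortical cells through receptors assembled from families of related subunits. AMPA, kainate and NMDA receptors are glutamate-gated cation channels, GABA-A receptors are GABA-gated anion channels, nicotinic receptors are acetylcholine-gated cation channels, and metabotropic glutamate and GABA-B receptors signal through G proteins. In the embryonic cortex these receptors are present before most synapses form, and the subunit mixture changes as neurons mature. The genes described here are all genes whose symbol names a subunit of these families. They numbered 63 of the 53379 genes counted: 4 AMPA (Gria), 7 NMDA (Grin), 5 kainate (Grik), 2 delta (Grid), 8 metabotropic glutamate (Grm), 19 GABA-A (Gabra to Gabrr), 2 GABA-B (Gabbr) and 16 nicotinic (Chrn) genes.

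RNA-seq was carried out on neocortex at E16 from 7 control (MADM-7) and 3 cKO (cKO-Cdkn1c-MADM-7) embryos, on a mixed C57BL/6J and CD1 background and without selection by sex. Both genotypes carried a GT and a TG MADM cassette on chromosome 7 and 1 Emx1-Cre allele (Emx1 Cre/+), which drives recombination in cortical projection neuron progenitors and their progeny. In the cKO, but not in the controls, the GT and the TG chromosome each also bore the Cdkn1c-flox allele. Every library held 400 sorted cells of 1 embryo, pooled over the green, red and yellow MADM labels, which include cells with uniparental disomy of chromosome 7. The comparison asks how receptor subunit expression differs in cortical cells that lack Cdkn1c, a cyclin-dependent kinase inhibitor.

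Reads on genes ran from 1738220 to 3362487 per library. They came from amplified cDNA with no molecular identifiers described, so reads are not independent molecules, and every value below rests on 400 cells per library. Cdkn1c itself had 32, 10 and 18 reads in cKO libraries 1, 2 and 3 and between 116 and 369 in the controls, with a median of 278. Its log2 fold change was -3.66 ± 0.31 (SE, edgeR adjusted p = 3.68e-06), in the direction of the labels. The share of reads outside genes was over 10% in cKO 1 and 2 and control 3, 4 and 5, and lower in the other 5 libraries. Hbb-bs, a red blood cell globin, exceeded 1000 reads in 3 libraries, cKO 1 and control 2 and 5.

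Cell type markers were not evenly spread. All 8 Cajal-Retzius cell markers were higher in cKO-Cdkn1c-MADM-7 in edgeR (in DESeq2 the adjusted p was 0.0807 for Trp73 and 0.236 for Ndnf), and their summed level was 649 to 892 CPM in the 3 cKO libraries against 26.5 to 236 in the controls, with no overlap (CPM, the usual depth-normalised read count, divides a gene's reads by the TMM-scaled total over the tested genes). Reln, the secreted glycoprotein of these earliest marginal zone neurons, had a log2 fold change of 2.71 (edgeR adjusted p = 0.000949), and none of the 8 was at 0 in all controls. Of all tested genes 2.27% were called higher, and the Cajal-Retzius list was chosen with earlier results of these data known. Lhx1 and Cacna2d2 (control medians of 3 and 5 reads) averaged under 10 reads in the controls and entered the test through their cKO reads. Of 15 projection neuron markers, 4 were lower (Neurod2, Neurod6 and Cux2 among them), none was higher, and their summed level was 5837 to 7293 CPM against 8310 to 11161. Their median log2 fold change was -0.59, and 0.883% of all tested genes were called lower. Neurod1, Bcl11b, Slc17a7 and Dcx were above 0 (log2 fold changes of 0.32, 0.26, 0.27 and 0.16) and were not called. Within the sums, Tubb3 and Neurod6 averaged 4533 and 2305 CPM in the controls, and Tubb3 was not called (edgeR adjusted p = 0.0930). GABAergic interneuron markers summed to 66.2 to 189 CPM in cKO and 73.3 to 287 in controls, with Dlx2 higher and Npy lower among 10 tested, a median log2 fold change of 1.03, and Slc32a1, the vesicular GABA transporter, at 0 or 1 read in every library. Npy alone averaged 88.5 CPM in the controls and 7.52 in cKO. Without it, a choice made after its values were seen, the sums were 65.4 to 172 CPM in cKO and 19.1 to 138 in controls with a median of 48.2, and all 9 other tested markers had a log2 fold change above 0, of which 1 passed the test. Gad1, Lhx6 and Dlx6os1 averaged under 10 reads in the controls and entered the test through their cKO reads, so these directions and the median describe the tested markers only. Radial glial progenitor markers (1494 to 2749 CPM against 1683 to 2820) and intermediate progenitor markers (640 to 775 against 423 to 1019) overlapped between genotypes, with 0 of 10 and 0 of 6 tested genes called. Microglia markers reached 38.2 CPM in cKO 3 and no more than 6.81 in the controls, endothelial and pericyte markers 20.9 in cKO 2 and no more than 8.73, and oligodendrocyte precursor markers 28.3 in cKO 1 and 84.2 in a control, with Sox10 at 0 or 1 read throughout. The red blood cell sum ran from 20.4 to 2301 CPM in cKO and from 0.360 to 1817 in controls.

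**Figure D1:**
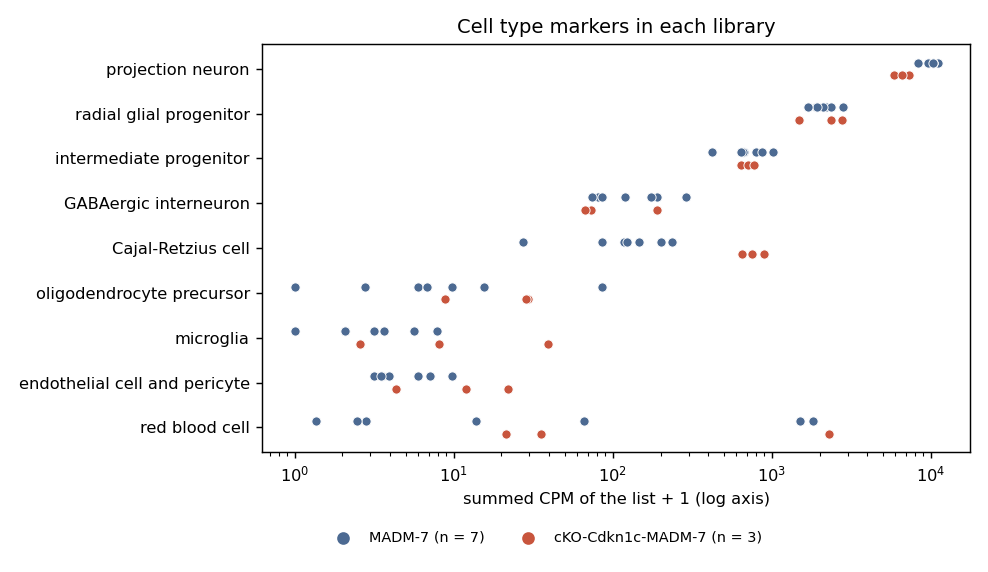
Summed CPM of each cell type marker list, plus 1, on a log axis, with 1 point per library for 7 MADM-7 and 3 cKO-Cdkn1c-MADM-7 libraries. The Cajal-Retzius sums of the 3 cKO libraries (649 to 892) lie above all controls (26.5 to 236), and the projection neuron sums of the cKO libraries (5837 to 7293) lie below all controls (8310 to 11161).

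Among the receptor subunits, 5 were higher in cKO-Cdkn1c-MADM-7 and 0 were lower. Among those higher were the AMPA subunit Gria1, the kainate subunit Grik1, the NMDA subunit Grin3a and the GABA-A subunit Gabrg3. The most abundant subunits of these classes per kb, Gria2, Grik5, Grin2b and Gabra2, were not called. Of the 63 subunits, 29 reached the mean of 10 reads needed for the test and 34 did not. The 5 calls among 29 compare with 3.15% of all 11551 tested genes called, with 2.27% of genes called higher and 0.883% called lower. At an unadjusted p under 0.05 the edgeR test had 9 of 29, all higher, against 16.4% of all tested genes, and DESeq2 called 4 of 29 against 4.42%. In 5 of 29 all 3 cKO libraries lay above all 7 controls on the CPM scale, against 3.32% of tested genes, and in 0 of 29 they lay below, against 2.68%. The median log2 fold change over the 29 was 0.47, beside 0.01 over all tested genes. Of the 29, 3 (Grik1 and Gabrg3 among them) averaged under 10 reads in the controls and entered the test through their cKO reads, so these counts and this median describe the tested genes only. With the filter set on the 7 controls, 27 subunits were tested and 2, Gria1 and Grin3a, were called. Without the 3 libraries with red blood cell reads, which leaves 2 cKO and 5 controls, Gria1 and Grik1 were called and the edgeR adjusted p was 0.114 for Grin3a and 0.0967 for Gabrg3. Over all alternative settings that tested them, this one included, log2 fold changes ran from 1.91 to 3.00 for Grin3a and 1.86 to 2.56 for Gabrg3. In libraries of pooled cells, more cells of a type and more RNA per cell cannot be told apart. The part of the marker differences above in the genotype differences of the subunits was not tested. Relations between subunits and the Cajal-Retzius sum within the controls are given further on.

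**Figure D2:**
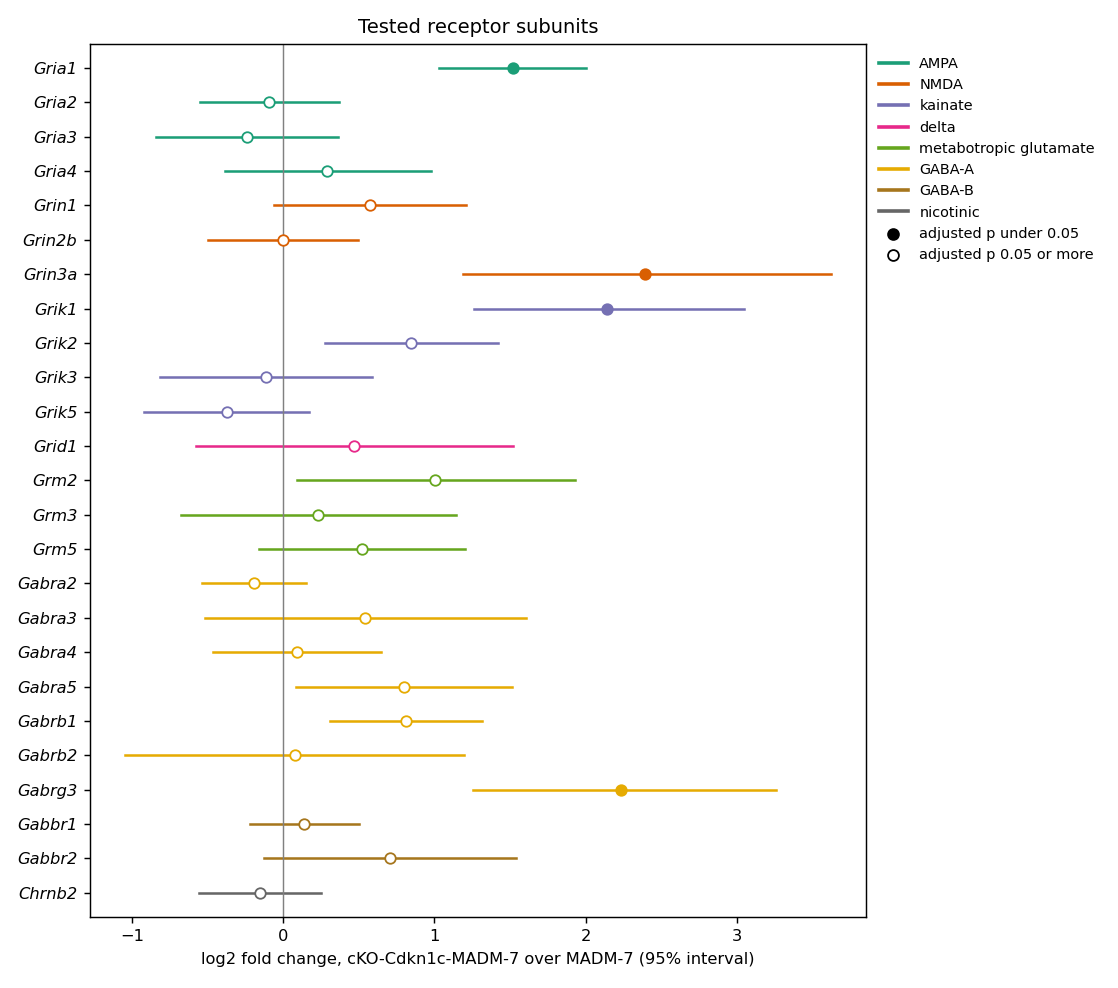
Log2 fold change of 25 of the 29 tested receptor subunits, cKO-Cdkn1c-MADM-7 over MADM-7, from edgeR with 95% intervals and coloured by receptor class. Filled points are 4 with an adjusted p under 0.05, which run from 1.52 (Gria1) to 2.39 (Grin3a), and the 21 open points include Gria2 at -0.09 and Grin2b at -0.00.

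Gria1 encodes GluA1, an AMPA receptor subunit, and lies on chromosome 11 (57011387 to 57330244, plus strand, GRCm38). It had 503, 202 and 238 reads in cKO 1, 2 and 3, and 68 to 168 in the controls with a median of 113. All 3 cKO libraries were above all controls, and cKO 1 was the highest. The cKO level was 117 ± 47.1 CPM (SD, n = 3) and the control level 41.1 ± 8.65 CPM (SD, n = 7). This is a log2 fold change of 1.52 ± 0.23 (SE, edgeR adjusted p = 0.000885). Gria1 had the smallest adjusted p among the subunits and stayed called in all 21 alternative settings, with a log2 fold change between 1.13 and 1.73. Among the libraries with at most 10% of reads outside genes the levels were 101 CPM in the single cKO library and 37.2 in the 4 controls, and among the others 125 (2 libraries) and 46.2 (3 libraries).

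The other AMPA subunits were not called. Gria2, which encodes the subunit that restricts calcium entry through AMPA receptors, had 1445, 699 and 756 reads in cKO and 619 to 1672 in the controls, with a median of 991. The groups overlapped throughout, and the log2 fold change was -0.09 with a 95% interval of -0.55 to 0.37. Gria3 and Gria4 had log2 fold changes of -0.24 (interval -0.84 to 0.36) and 0.29 (-0.39 to 0.97). Per kb of exon, Gria2 was the second most abundant subunit of all in the controls (24.8 ± 6.26 CPM per kb, SD, n = 7) and Gria1 was eighth at 6.80 ± 1.43, while in cKO Gria1 was the third at 19.3 ± 7.79 CPM per kb (SD, n = 3). As a share of all AMPA reads per kb, Gria1 took 43.2%, 35.2% and 40.5% in cKO 1, 2 and 3 and 12.4% to 24.2% in the controls, with a median of 19.0%. Gria2 took 48.5% ± 1.31 (SD, n = 3) and 66.4% ± 5.56 (SD, n = 7). Gria1 shares did not overlap between the genotypes, which is described without a test because the shares of a class add up to 100%.

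Kainate receptors gave the next call. Grik1 encodes GluK1 and lies on chromosome 16 (87895900 to 88290265, minus strand). It had 27, 41 and 38 reads in cKO and 1 to 20 in the controls, with a median of 6, so its levels rest on few reads. All cKO libraries were above all controls, at 13.8 ± 4.06 CPM (SD, n = 3), where the controls had 2.94 ± 1.90 CPM (SD, n = 7). Grik1 had a log2 fold change of 2.14 ± 0.42 (SE, edgeR adjusted p = 0.00721), and the call held in the 19 alternative settings in which the gene was tested. It averaged 8.43 reads in the controls and entered the test through its cKO reads. The filter on control reads and the filter on reads in every library left it untested. Grik2, which encodes GluK2, had 178, 98 and 69 reads against 41 to 96 and did not pass the test (log2 fold change 0.85, interval 0.28 to 1.42, adjusted p = 0.108). Grik5 encodes a subunit that needs GluK1, GluK2 or GluK3 to form a channel and was the most abundant kainate subunit per kb, at 8.94 ± 2.40 CPM per kb in the controls (SD, n = 7). It had 100, 116 and 66 reads in cKO and 77 to 218 in the controls, with a median of 121, and a log2 fold change of -0.37 (interval -0.92 to 0.17). Grik3 had 62, 83 and 26 reads against 29 to 117 with a median of 67 (log2 fold change -0.11, interval -0.81 to 0.59). Both overlapped between genotypes. Grik1 took 8.57%, 13.4% and 19.9% of kainate reads per kb in cKO and 0.434% to 6.16% in the controls, and Grik5 45.2% ± 4.12 and 63.1% ± 3.62 (SD, n = 3 and 7).

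**Figure D3:**
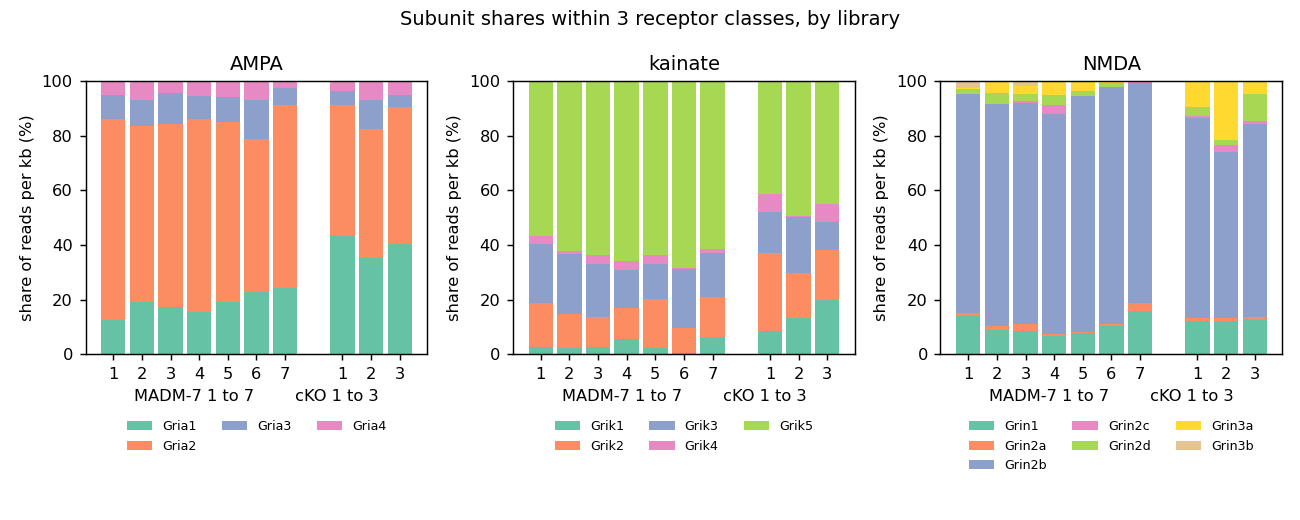
Share of reads per kb of exon that each subunit takes within the AMPA, kainate and NMDA subunits, in percent, with 1 bar per library (MADM-7 libraries 1 to 7, then cKO-Cdkn1c-MADM-7 libraries 1 to 3). Gria1 takes 35.2% to 43.2% of AMPA in cKO and 12.4% to 24.2% in the controls, and Grin2b takes at least 60.6% of NMDA in every library.

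NMDA receptors contain the obligatory subunit encoded by Grin1. Grin3a, whose product GluN3A lowers calcium permeability of NMDA receptors and is most abundant in early life, lies on chromosome 4 (49661611 to 49845744, minus strand). It had 67, 83 and 12 reads in cKO and 0 to 26 in the controls, with a median of 8. The groups overlapped, since cKO 3 (5.09 CPM) lay within the control range (0 to 8.43 CPM). The log2 fold change of 2.39 ± 0.58 (SE, edgeR adjusted p = 0.0272) was the largest among the called subunits and had the widest interval, 1.19 to 3.62, and it rested on cKO 1 and 2. The adjusted p was 0.246 in DESeq2 and 0.0800 in limma-voom. It was 0.0809 without cKO 1, 0.122 without cKO 2 and 0.0529 without control 1, all in edgeR. Both cKO 1 and 2 belong to the libraries with over 10% of reads outside genes, where the levels were 27.6 CPM (2 cKO) and 6.23 CPM (3 controls), against 5.09 (1 cKO) and 1.97 (4 controls) in the others. Grin2b, which encodes the main GluN2 subunit of the embryonic forebrain, had 1028, 471 and 349 reads in cKO and 365 to 1006 in the controls, with a median of 611. Its log2 fold change was -0.00 with an interval of -0.50 to 0.49. Grin1 had 66, 37 and 24 reads against 13 to 42 with a median of 31 (log2 fold change 0.57, interval -0.06 to 1.21). Exons of an antisense gene cover 13.5% of the Grin1 exons, and reads that fall on both genes were left out of its count. Grin2a, the subunit that becomes abundant after birth, averaged 8.20 reads and was not tested, as were Grin2c, Grin2d and Grin3b.

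Delta receptors bind cerebellins and carry little or no glutamate current. Their member Grid1 had 8, 22 and 16 reads in cKO and 3 to 20 in the controls, with a median of 12. The genotypes overlapped and the log2 fold change was 0.47 (interval -0.57 to 1.52).

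Of the metabotropic glutamate receptors, Grm5 (mGluR5), which is coupled to phospholipase C, had 129, 112 and 63 reads in cKO and 32 to 169 in the controls, with a median of 59, and a log2 fold change of 0.52 (interval -0.16 to 1.20). Grm3, which couples to inhibition of adenylyl cyclase, had 18, 82 and 36 reads against 14 to 80 with a median of 39. On the CPM scale cKO 2 (32.3) lay above the control range (5.04 to 23.5) and the other cKO libraries within it, and the log2 fold change was 0.23 (interval -0.68 to 1.14). Grm2 had 76, 19 and 77 reads against 15 to 71 with a median of 28 and did not pass the test (log2 fold change 1.01, interval 0.09 to 1.93, adjusted p = 0.249). Exons of an antisense gene cover 9.60% of the Grm2 exons, and reads on both genes were left out. Of the 8 metabotropic genes 4 were not tested, and Grm6 had no reads.

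**Figure D4:**
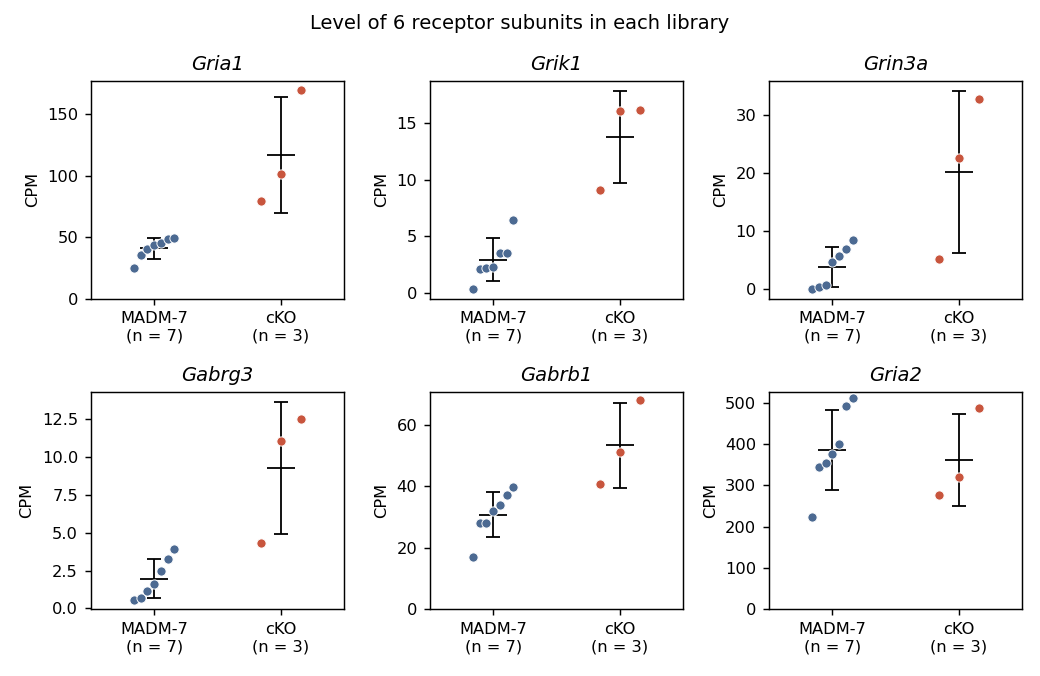
CPM of 6 receptor subunits in each library, with the mean and SD of 7 MADM-7 and 3 cKO-Cdkn1c-MADM-7 libraries as a bar and whiskers. Gria1, Grik1, Gabrg3 and Gabrb1 do not overlap between the genotypes, 1 cKO library of Grin3a (5.09 CPM) lies among the controls (0 to 8.43 CPM), and Gria2 overlaps throughout.

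GABA-A receptors commonly join alpha, beta and gamma subunits, and many of their genes stand in clusters that hold an alpha, a beta and a gamma gene. On chromosome 7, which also carries Cdkn1c, Gabrg3 (56716465 to 57387188, minus strand) lies 86.4 Mb from Cdkn1c and Gabra5 (57407672 to 57510059, minus strand) 86.0 Mb. For Gabrg3, a called gene, and its neighbour Gabra5, the 250 bases before the RefSeq transcript start (RefSeq, GRCm38.p6) are shown 5′ to 3′ on the minus strand, the strand of both genes. Capitals mark matches on either strand to GGGCGG (a GC box, found in 32.7% of 32851 such windows) or CANNTG (an E-box, in 66.2%). Of the 63 subunits 44 had an entry in the RefSeq table.
Gabrg3, chr7:57387216-57387465: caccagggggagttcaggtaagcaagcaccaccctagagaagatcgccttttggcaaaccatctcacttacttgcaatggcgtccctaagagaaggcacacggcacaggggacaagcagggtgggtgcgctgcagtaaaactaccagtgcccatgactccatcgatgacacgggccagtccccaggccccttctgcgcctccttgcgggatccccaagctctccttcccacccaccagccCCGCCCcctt
Gabra5, chr7:57510060-57510309: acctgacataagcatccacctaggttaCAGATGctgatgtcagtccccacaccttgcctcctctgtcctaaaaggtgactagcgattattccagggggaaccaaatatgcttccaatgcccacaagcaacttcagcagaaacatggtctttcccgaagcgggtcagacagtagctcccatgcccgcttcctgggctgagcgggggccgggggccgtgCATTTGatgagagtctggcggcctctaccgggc
In GENCODE M21 the first exon of the antisense gene Gm9962 (57387272 to 57387394, plus strand) covers 123 bases of the Gabrg3 window, which holds 1 GC box and 0 E-boxes, and the Gabra5 window holds 0 GC boxes and 2 E-boxes. Their GC contents were 60.4% and 56.4%, beside a median of 52.4% over all windows.

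Gabrg3 had 37, 11 and 26 reads in cKO and 2 to 11 in the controls, with a median of 5. On the CPM scale all cKO libraries (4.33 to 12.5) were above all controls (0.589 to 3.92), with cKO 2 close to the highest control. The log2 fold change was 2.23 ± 0.48 (SE, edgeR adjusted p = 0.0112). The edgeR adjusted p was 0.0775 without cKO 1 and 0.174 with replicate number as a block. The call was also lost without the 3 libraries with red blood cell reads. Gabrg3 averaged 5.43 reads in the controls and entered the test through its cKO reads. Gabra5 was not called and had 58, 50 and 86 reads against 13 to 69 with a median of 44 (log2 fold change 0.80, interval 0.08 to 1.51, adjusted p = 0.242). Exons of Gm9962 also cover 4.98% of the Gabra5 exons, and reads on both genes were left out. The level of Gabrg3 per length was 0.778 ± 0.364 CPM per kb in cKO (SD, n = 3) and 0.165 ± 0.108 in the controls (SD, n = 7).

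A cluster on chromosome 5 holds Gabrg1, Gabra2, Gabra4 and Gabrb1. Gabrb1, a beta subunit gene, had 202, 130 and 96 reads in cKO and 48 to 115 in the controls, with a median of 88. On the CPM scale all cKO libraries (40.7 to 68.1) were above all controls (17.1 to 39.6), but the test was not passed (log2 fold change 0.81 ± 0.24, SE, edgeR adjusted p = 0.0767). Gabra2, an alpha subunit typical of immature forebrain neurons, was the most abundant subunit of all per kb in the controls, at 25.5 ± 3.05 CPM per kb (SD, n = 7), a level within the spread of Gria2. It had 383, 515 and 426 reads in cKO and 375 to 691 in the controls, with a median of 563, and a log2 fold change of -0.19 (interval -0.53 to 0.15). Gabra4 was not called (log2 fold change 0.09, interval -0.46 to 0.64). The head-to-head genes Gabra4 and Gabrb1 share only 46 exonic bases.

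Among the other GABA-A genes, Gabrb2 on chromosome 11, a beta subunit gene, had 37, 10 and 13 reads in cKO and 5 to 42 in the controls (log2 fold change 0.08, interval -1.04 to 1.20). Gabra3 on the X chromosome had 15, 10 and 27 reads against 4 to 25 (log2 fold change 0.54, interval -0.51 to 1.61). Gabrd, the delta subunit gene, averaged 8.10 reads and was not tested, and Gabrr1, Gabrr3 and Gabrp had no reads.

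GABA-B receptors are dimers of the products of Gabbr1 and Gabbr2. Gabbr1 had 299, 296 and 186 reads in cKO and 145 to 349 in the controls, with a median of 264, and a log2 fold change of 0.14 (interval -0.22 to 0.50). Gabbr2 had 58, 83 and 25 reads against 16 to 66 with a median of 30 (log2 fold change 0.70, interval -0.13 to 1.54). Both genes overlapped between genotypes. Per kb the level of Gabbr1 exceeded that of Gabbr2 in the controls, at 11.5 ± 1.54 against 2.00 ± 1.06 CPM per kb (SD, n = 7).

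Of 16 nicotinic genes only Chrnb2, the beta subunit of the main heteromeric receptor of the brain, was tested. It had 315, 159 and 155 reads in cKO and 138 to 300 in the controls, with a median of 239. The genotypes overlapped and the log2 fold change was -0.15 (interval -0.56 to 0.25). Exons of Adar on the opposite strand cover 16.3% of the Chrnb2 exons, so reads there were left out. Chrna7, which forms receptors of identical subunits, had 4, 8 and 9 reads in cKO and 4 to 23 in the controls, with a median of 9. Chrne, a subunit of the muscle receptor, had 17, 4 and 1 reads against 0 to 2. With no filter on low counts it was called by edgeR (adjusted p = 0.00454), on reads that came mostly from cKO 1. It was named after its values were seen. Of the 34 untested subunits 10 had no reads in any library and the others averaged up to 9.70 reads, the 3 highest being Chrna7, Chrna3 and Grin2a, and none separated the genotypes.

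**Figure D5:**
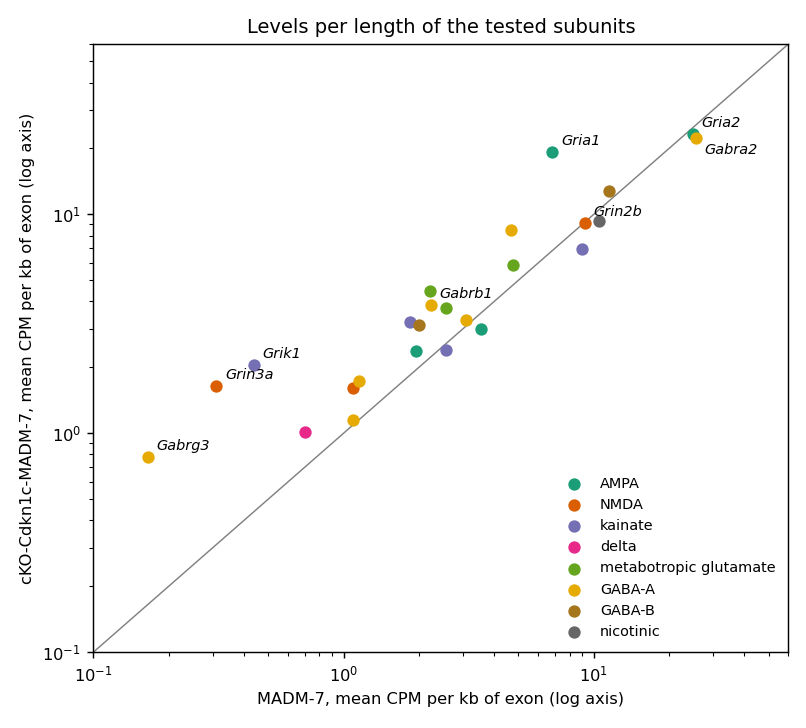
Mean CPM per kb of exon of 25 of the 29 tested subunits in MADM-7 (horizontal, log axis) and cKO-Cdkn1c-MADM-7 (vertical, log axis), coloured by receptor class, with the diagonal of equal levels. Gria2 and Gabra2 sit near the diagonal at the top, Gria1 lies above it (6.80 against 19.3), and Grik1, Grin3a and Gabrg3 lie above it at control levels of 0.437, 0.309 and 0.165, of which Grik1 and Gabrg3 passed the filter on reads only through cKO.

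Per kb of exon, Grik1, Grin3a and Gabrg3 had mean control levels of 0.437, 0.309 and 0.165 CPM per kb, and the 24 uncalled subunits ran from 0.699 to 25.5 CPM per kb. Grik1 and Gabrg3 passed the filter on reads only through cKO, so their place below the uncalled subunits depends in part on the filter. Grin3a, which averaged 10.7 reads in the controls, also lay below the uncalled subunits. For the 24, the 95% interval lay within a log2 change of 1 in either direction for 11 (Gria2, Gria3, Gria4, Grin2b, Grik3, Grik5, Gabra2, Gabra4, Gabbr1 and Chrnb2 among them), and reached beyond it for 13, so that for these a change of that size lies within the interval. In the order of control levels per kb, the gap between Gria2 (level of 24.8 CPM per kb) and Gabbr1 (level of 11.5) exceeded the spread of both. Gabbr1 and Chrnb2 were within each other's spread, as were Grin2b and Grik5.

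Levels of Gria1, Grik1, Grin3a and Gabrg3 were also set against the summed Cajal-Retzius markers across the 7 controls alone, where genotype does not vary. Over these 4 relations Pearson's r ran from 0.25 (Gabrg3) to 0.73 (Grin3a) and Spearman's rho from 0.32 (Gria1) to 0.57 (Grin3a), none with a p under 0.05. The smallest p was 0.0665 (exact permutation test, two-sided, n = 7, adjusted p = 0.266), for r of Grin3a. Without the 2 controls farthest from the median marker sum, r ran from 0.36 (Gria1) to 0.96 (Grik1) over 5 libraries. The marker sums of the controls (26.5 to 236 CPM) did not reach those of the cKO libraries (649 to 892), so the relation at cKO levels was not tested. Grik1 and Gabrg3 had only 1 to 20 and 2 to 11 reads in the controls and passed the filter on reads only through cKO.

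Genes that act with these receptors were compared through 5 lists of 74 genes, of which 62 were tested and, in edgeR, 4 were higher and 0 lower. Their median log2 fold change was 0.11, beside 0.01 over all tested genes, of which 2.27% were called higher. Slc12a5 and Ache averaged under 10 reads in the controls and entered the test through their cKO reads, and with the filter set on the controls 2 of 59 (Cacng5 and Slc1a2) were called, so the 4 calls describe the tested genes only. Among 18 tested partners of AMPA, kainate and delta receptors, 1 was higher. It was Cacng5, a transmembrane AMPA receptor regulatory protein, with 86, 58 and 89 reads in cKO and 3 to 51 in the controls (log2 fold change 1.58 ± 0.34, SE, edgeR adjusted p = 0.0135, 0.0750 without cKO 3). Among 15 tested genes of transmitter synthesis, transport and the chloride gradient, 3 were higher. Slc1a2, the glial glutamate transporter GLT-1, had 184, 230 and 159 reads against 24 to 155 (1.38 ± 0.30, adjusted p = 0.0157, 0.0571 without cKO 2). Slc12a5, the chloride exporter KCC2 that lowers intracellular chloride as neurons mature, had 26, 36 and 14 reads against 1 to 9 (2.00 ± 0.43, adjusted p = 0.0127, 0.0768 without cKO 2). Ache, acetylcholinesterase, had 87, 9 and 43 reads against 3 to 17 with overlap (2.71 ± 0.54, adjusted p = 0.00692, 0.0898 without cKO 1, 0.0687 in limma-voom). Without the 3 libraries with red blood cell reads none of these 4 was called, with edgeR adjusted p of 0.0543 for Cacng5, 0.0588 for Slc1a2, 0.0587 for Slc12a5 and 0.0866 for Ache.

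The remaining lists held no call in edgeR. Of 17 tested excitatory postsynaptic scaffolds the smallest p was that of Homer2 (log2 fold change 0.99, interval 0.39 to 1.61, edgeR adjusted p = 0.0740, DESeq2 adjusted p = 0.0455), of 8 GABA receptor partners and inhibitory scaffolds that of Iqsec3 (0.97, interval 0.08 to 1.86, adjusted p = 0.251), and of 4 nicotinic receptor chaperones and modulators that of Ly6h (0.55, interval 0.08 to 1.03, adjusted p = 0.221). The scaffold list had a median log2 fold change of 0.03, the GABA list of -0.05 and the nicotinic list of -0.21.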

How the data were processed

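The authors sorted MADM-labelled cells, made Smart-Seq2 libraries, aligned reads to GRCm38 with STAR 2.5.0c (bedtools 2.26.0 is also in the submitters' processing notes), kept unique alignments and deposited raw counts per GENCODE M16 gene. The column that ignores strand was used, since 50.3% to 50.5% of reads fell on the first strand. Reads shared by overlapping genes are not counted, which lowers the counts of such genes. Symbols and exon lengths came from GENCODE M21, and 105 of 53379 genes did not match. Genes averaging 10 reads or more (11551) were tested with edgeR 4.0.16 (TMM, glmQLFit, glmQLFTest, genotype alone) in R 4.3.3, adjusted by Benjamini-Hochberg over all tested genes at 0.05. DESeq2 1.42.0 and limma 3.58.1 were alternatives, and the procedure was checked on simulated data. Python 3.11.15 and matplotlib 3.10.9 drew figures. Depth was 1738220 to 3362487 reads on genes, and no pair of libraries of a genotype agreed within sampling noise (chi-square per degree of freedom 4.93 to 23.8). The members and gene lists were chosen with earlier results of these data known. Values per library are given for Gria1, each called subunit, each whose cKO libraries all lie outside the controls, and the 2 highest per kb in each class. Grik2, Grm2, Gabra5, Gabrb2, Gabra3 and Chrne were added after their values were seen. Pathway genes are named when called or smallest in p in their list. A few genes are not reported singly, although counts, sums and adjustments include them.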

Additional observations from a re-analysis of the deposited data

Results flagged for a closer look

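Among the 29 tested subunits, Grm2 was set apart in 1 control: control 1 had 25.8 CPM, and the next highest control had 9.99 CPM, a gap of 77.4% of the range of the 7 controls. The limit used to single out a library is passed by chance in about 1 in 20 groups.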

How the results depend on the processing

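The number of subunits called was 5. It was 4 in DESeq2 and in limma-voom, 5 with DESeq2 size factors, total counts, summed strand columns or a term for reads outside genes, 6 with no filter on low counts, 1 with at least 10 reads in every library (22 tested) and, as alternatives chosen after seeing the data, 2 with the filter on controls and 2 without the 3 libraries with red blood cell reads. Leaving out 1 library gave 3 to 5 subunits, with 3 without cKO 1 and 3 without cKO 2. Pathway calls numbered 4, all higher, and became 5 in DESeq2, 3 in limma-voom, 10 with no filter (9 higher), 1 with 10 reads in every library, 2 with the control filter, 1 without the 3 libraries (Cnih3, lower) and 4 to 6 without 1 library (6 without cKO 1, 4 of them higher). Same-numbered cKO and control libraries did not pair (correlations of their deviations 0.05, -0.10 and -0.21, with 0 of 3 closest to its own number), and the replicate block left 3 subunits and 2 pathway genes. Without division by exon length, Gria1 took 21.9% of AMPA reads in cKO and 8.92% in controls. Cdkn1c stayed lower and called in every setting in which it was recomputed. Uncalled subunits near 0 changed sign (log2 fold changes). In the replicate block Gabbr1 was -0.011 and Grm3 -0.093, and without the 3 libraries Gabra2 was 0.025. Grin2b was 0.0029 in DESeq2, 0.0068 with DESeq2 size factors, 0.015 with at least 10 reads in every library and 0.010 with total counts. With 1 library left out Grin2b ran from -0.45 to 0.22, Gria2 from -0.37 to 0.069, Grik3 from -0.52 to 0.18 and Grm3 from -0.54 to 0.69. The cause was not tested, except that stricter filters test fewer genes.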
